A study of Drosophila melanogaster with 3 samples.

Results

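Weak peaks of a rabbit antibody against Grainy head (Grh) that lay far from every peak of a mouse antibody against the same factor were the larger part of the rabbit list. They were selected on measured values, as rabbit peaks with a deposited score below 25 whose nearest mouse peak start on the same chromosome was more than 5000 bp away. The rule took 7469 of 12158 rabbit peaks, or 61.4% (exact 95% binomial interval 60.6 to 62.3%). Of all rabbit peaks, 63.9% met the distance condition and 94.4% the score condition. The score and the distance to the mouse list thus chose the peaks, and both are given here as descriptions, with no test. A further 2 weak rabbit peaks lay on 2LHet, where the mouse list had no peak, so that no nearest mouse peak could be measured and they were left out.

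Grh binding was mapped by chromatin immunoprecipitation and sequencing (ChIP-seq) in w1118 embryos of Drosophila melanogaster, 13 to 16 h old, after fixation in formaldehyde at 1.8%. The study made 3 libraries from such embryos. They used an anti-Grh antibody raised in mouse, another raised in rabbit, and rabbit IgG, the control. The mouse list held 1638 peaks, and the IgG library was not analysed here. With 1 library per antibody there is no replicate spread: intervals below cover counting error only, and they are too narrow where peaks lie in groups. Read depths are unknown, and no peak position was assigned to a gene. Each peak is a 2 bp interval of the dm3 genome build and is named by its first base.

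Grh is the founding member of the Grainyhead family of transcription factors and is present in epithelia such as the epidermis and the trachea. It is known for switching on genes of the cuticle barrier and of its repair after wounding, and for helping to open enhancers in epithelial cells. In ChIP-seq, fragments pulled down with the factor pile up around the places it holds, and a peak caller lists the piles that stand above the background. An antibody also brings down some fragments that its target does not hold, for which a non-specific IgG precipitation is the usual control. The lists at hand give no IgG value for any peak.

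The scores of the weak distant peaks crowded at the low end. They ran from 2.0 to 24.9, with a median of 5.28 and quartiles of 3.48 and 7.63, against a median of 5.98 over all rabbit peaks. Scores below 5 were held by 45.7% of them and scores below 10 by 86.4%, while 111 peaks, or 1.49%, scored 20 or more. The unit of the score is not stated, so it serves here only to compare peaks within the list and gives no binding strength. The score followed the deposited ranks only loosely, with a Spearman correlation of 0.34 across these peaks (a first rank counted as high). Words such as weak and strong refer to the score alone. The number per unit of score was 1279 between 2 and 3, 925 between 4 and 5, 1111 between 5 and 6, 206 between 10 and 11, and 20 between 24 and 25. The decline was thus not steady. Beyond the limit there were 8 distant rabbit peaks between 25 and 26, 17 between 26 and 27 and 19 between 27 and 28.

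In score, these peaks stood a little below weak rabbit peaks that lay nearer to a mouse peak. Weak rabbit peaks between 250 and 5000 bp from a mouse peak, 2595 in number, had a median score of 5.59 (quartiles 3.87 and 7.82), and 39.0% (37.2 to 40.9%) of them scored below 5 and 86.7% below 10, against 45.7% (44.6 to 46.8%) and 86.4% of the weak distant peaks. Those within 250 bp of a mouse peak, 1406 in number, had a median of 13.7 (quartiles 9.72 and 18.1). Among these weak rabbit peaks, the larger difference in score thus lay between those on a mouse peak and the rest. Beyond 5000 bp the median score showed no steady fall, at 5.25 between 5 and 10 kb, 5.19 between 20 and 50 kb, 5.41 between 100 and 200 kb and 5.88 beyond 200 kb. Across the 7469 peaks of this 1 library, the Spearman correlation of score with distance was 0.017.

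**Figure D1:**
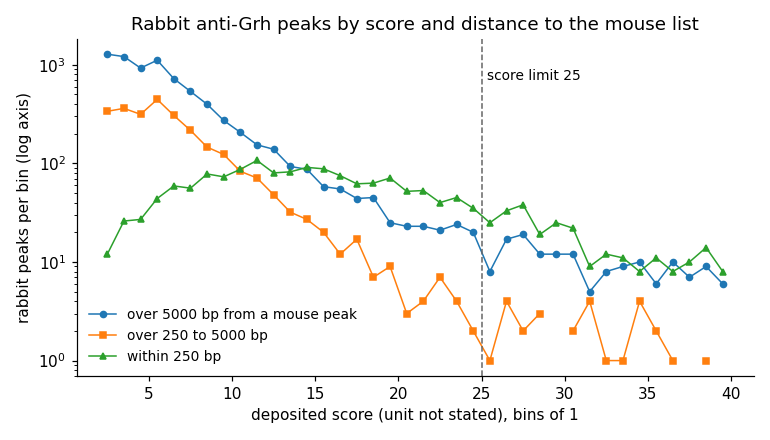
Number of rabbit anti-Grh peaks (log axis) per unit of deposited score, for peaks over 5000 bp from the nearest mouse peak start (circles), over 250 to 5000 bp away (squares) and within 250 bp (triangles). Bins with no peak are left blank. Left of the dashed line at a score of 25, the circles are the weak distant peaks. They number 1279 between 2 and 3 and 20 between 24 and 25, with a rise from 925 between 4 and 5 to 1111 between 5 and 6. The triangles are few at low scores.

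The peaks next to the limits were as follows. The 3 highest-scoring weak distant peaks were on 3R at 12239651 (score 24.9), on 2L at 8889011 (24.8) and on 3R at 2900177 (24.8). Just above the limit stood distant peaks on 2L at 7702679 and 20787558, with scores of 25.03 and 25.05, and on X at 13976914 with a score of 25.14. At the distance limit, the closest peaks taken in were on 2R at 3912059, on 3L at 2582218 and on X at 16544830, which lay 5005, 5007 and 5014 bp from a mouse peak with scores of 7.78, 5.04 and 11.4. The closest left out were all on 3R, at 26292621, 2929271 and 2640145, at 4996, 4989 and 4984 bp with scores of 3.70, 8.32 and 11.2.

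The strongest of the weak distant peaks stood in different surroundings. The peak on 3R at 12239651 lay 9986 bp from a mouse peak, and its nearest rabbit peak, 9508 bp away, scored 25 or more. The peak on 2L at 8889011 had another rabbit peak 516 bp away and a mouse peak 7668 bp away. That on 3R at 2900177 lay 330 bp from another rabbit peak and 15070 bp from a mouse peak, in a group of 3. On 2L at 6797615 (score 24.8) the peak belonged to a group of 8 weak distant peaks and lay 92344 bp from a mouse peak and 212299 bp from any rabbit peak of 25 or more. On X at 15957142 (score 24.8) the peak lay 218729 bp from a mouse peak, but a rabbit peak of 25 or more was 532 bp away. They had little in common in crowding, with 1, 2, 3, 8 and 2 members in their groups.

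The distance to the nearest mouse peak had a median of 30342 bp (quartiles 14236 and 64847 bp). It was over 100 kb for 1087 peaks, or 14.6% (13.8 to 15.4%), and over 200 kb for 241, or 3.23%. The 5 farthest lay near the ends of sequences or in heterochromatic ones. They were on 2RHet at 71225, 370099 and 370432, on 2R at 18428 and on 3LHet at 207230, with scores of 5.57, 4.48, 4.18, 2.12 and 2.71 and distances from 2204696 down to 1363025 bp. Of all weak distant peaks, 99 lay beyond the outermost mouse peak of their chromosome and were left out of densities per megabase.

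Per megabase of sequence, weak rabbit peaks became sparser with every step away from the mouse list. Sequence was counted between neighbouring mouse peaks, by distance to the nearer of them. It included 0.70 Mb of distant heterochromatic sequence, which held 0 weak distant peaks. There were 106 weak peaks per Mb (99.5 to 112, exact 95% Poisson interval) between 5 and 10 kb, from 1083 peaks. The density was 95.7 per Mb (91.1 to 101) between 10 and 20 kb, 74.7 between 20 and 50 kb and 55.8 (52.9 to 58.9) between 50 and 100 kb. It was 51.2 (47.8 to 54.9) between 100 and 200 kb and 40.2 (35.0 to 46.0) beyond 200 kb, from 216 peaks. Intervals overlapped between 5 to 10 and 10 to 20 kb, and between 50 to 100 and 100 to 200 kb. The fall from the first class to all sequence beyond 100 kb was 2.18-fold (95% interval 2.0 to 2.37 from the counts, 1083 and 1044 peaks). It carried on the fall seen nearer to mouse peaks, where weak rabbit peaks numbered 433 per Mb between 250 and 1000 bp and 149 between 2500 and 5000 bp. The rule itself fixes no density beyond 5000 bp, but the fall was found in these lists and was not tested.

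Rabbit peaks of score 25 or more did not thin out in the same way over these distances. They numbered 299 over 5000 bp from a mouse peak. Their density was 2.93 per Mb (1.97 to 4.18) between 5 and 10 kb, 2.83 between 20 and 50 kb, 3.09 between 100 and 200 kb and 2.79 (1.56 to 4.61) beyond 200 kb, and the intervals of all 6 classes overlapped. As a share of all rabbit peaks in a class they went from 2.70% (1.83 to 3.83%) between 5 and 10 kb to 6.49% (3.68 to 10.5%) beyond 200 kb. The difference between the weak and the stronger peaks was not tested.

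**Figure D2:**
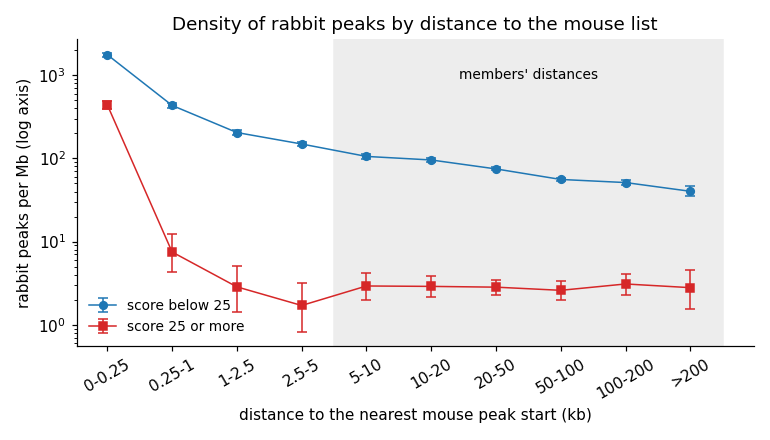
Rabbit anti-Grh peaks per megabase (log axis) by distance to the nearest mouse peak start, for peaks with a score below 25 (circles) and of 25 or more (squares); bars are exact 95% Poisson intervals and the shaded classes are those of the weak distant peaks. Circles fall from 106 per Mb between 5 and 10 kb to 40.2 beyond 200 kb, while squares in the shaded classes stay between 2.60 and 3.09.

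Long mouse-free stretches also showed a fall within themselves, up to 100 kb from a mouse peak, though from a lower density. In the 152 stretches over 200 kb long, there were 81.6 weak peaks per Mb (67.9 to 97.3) between 5 and 10 kb from a bounding mouse peak. Over all stretches that class had 106 (99.5 to 112). In the long stretches the density was also 81.6 between 10 and 20 kb, so the first step showed no fall. It was then 65.5 between 20 and 50 kb and 51.9 between 50 and 100 kb, the last class that all 152 hold in full. Sequence over 100 kb from both bounding mouse peaks exists only in stretches of this length. The values of 51.2 (47.8 to 54.9) between 100 and 200 kb and 40.2 (35.0 to 46.0) beyond 200 kb thus repeat those over all stretches. Only the longer of these stretches reach beyond 200 kb, so the last step does not compare the same stretches. The length of the stretch also went with the density. Counting only sequence over 5000 bp from a mouse peak, stretches of 20 to 50 kb held 114 weak peaks per Mb (106 to 122) and those over 500 kb held 48.1 (44.3 to 52.3).

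Neighbouring mouse peaks bounded 1628 stretches, of which 1116 were longer than 10 kb and so had room for a weak distant peak. Such a peak was present in 916 of them, with a median of 6, and absent from 200, whose median length was 17991.5 bp. Stretches with 10 or more, 271 in number, held 4676 of the peaks, or 62.6%. The fullest was on X between the mouse peaks at 12649230 and 13519619, with 67 weak peaks over 870 kb, of which 34 lay in 7 domains (groups of 3 or more, defined below). Next came X from 18541258 to 19247828 with 61 over 707 kb, 2R from 9052608 to 9474965 with 48 over 422 kb, 3R from 13457257 to 13944233 with 48 over 487 kb, and 2L from 10687222 to 11357108 with 47 over 670 kb.

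Those 5 stretches differed in how densely they were filled. That on 2R held 11.4 weak peaks per 100 kb and those on X 7.70 and 8.63. The 2R stretch also had the lowest scores, with a median of 4.39 and a highest of 11.0, against medians of 6.44 and 6.42 in the stretches on X. In the 2R stretch 37 of the 48 lay in 8 domains, and in the 2L stretch 15 of the 47 lay in 4. Rabbit peaks of 25 or more were few in all 5, numbering 4, 2, 1, 1 and 2 in the order above. The longest mouse-free stretch of all, on X from 21152214 to 22035927, held 30 weak peaks over 884 kb, and one on 3LHet from 1570255 to 2280615 held 0.

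Neighbours were close for many weak distant peaks and remote for others. The gap to the nearest other rabbit peak of any score had a median of 1321 bp (quartiles 456 and 4984 bp), and the gap to the nearest other weak distant peak a median of 1398 bp. Another rabbit peak lay within 500 bp of 28.1% (27.1 to 29.2%), within 1000 bp of 45.1% and within 5000 bp of 75.1%. No rabbit peak lay within 10 kb of 855 peaks, or 11.4% (10.7 to 12.2%). Weak rabbit peaks between 250 and 5000 bp from a mouse peak had a median gap of 550 bp, but nearly every mouse peak has a rabbit peak, so the class itself sets a near neighbour. A rabbit peak of 25 or more lay within 1000 bp of 97 weak distant peaks (1.30%) and within 10 kb of 763 (10.2%). Such peaks were rare throughout the list, in which 94.4% of rabbit peaks scored below 25.

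Score varied little with crowding. Weak distant peaks with a rabbit neighbour within 300 bp, 993 in number, had a median score of 5.23, and the 855 with none within 10 kb had a median of 5.53. Scores of 10 or more were held by 13.3% (11.2 to 15.6%) of the former and 17.9% (15.4 to 20.6%) of the latter. The lone peaks thus had slightly higher scores, a difference that was not tested. The number of other rabbit peaks within 10 kb on either side had a median of 3 (quartiles 1 and 5, highest 23), and its Spearman correlation with score across the 7469 peaks was -0.057.

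Some close neighbours carried 1 deposited rank in common, so that they need not be separate binding regions. Of 6335 pairs of neighbouring weak distant peaks with no other rabbit peak between them, 751, or 11.9%, had their rank in common, at a median gap of 270 bp. The share was 90.9% (88.0 to 93.3%) at gaps up to 300 bp, 39.5% between 300 and 500 bp, 5.66% between 500 and 1000 bp and 0.35% between 1000 and 5000 bp. What the rank measures is not stated. Joined at gaps of up to 1 kb, 54.9% of the weak distant peaks were the lone peak of their place, and 560, or 7.50% (6.91 to 8.12%), belonged to places of 4 or more rabbit peaks, against 13.4% of all rabbit peaks.

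Domains of several weak distant peaks were formed by chaining them at gaps of up to 5000 bp and keeping groups of 3 or more. No mouse peak can lie between chained peaks, because each is over 5000 bp from the nearest. There were 873 domains, with 3701 of the 7469 peaks, or 49.6% (48.4 to 50.7%). The share was 29.4% at a chaining gap of 2000 bp, and with rabbit peaks first joined at 1 kb and counted as 1 there were 356 domains with 23.2%. At the 5000 bp gap, another 858 groups were pairs and 2052 peaks were alone, which was 27.5% (26.5 to 28.5%) of them. Larger groups were fewer, with 407 domains of 3, 200 of 4, 106 of 5 and 14 of 10 or more. The median domain had 4 members and spanned 4066 bp (quartiles 2237 and 6462 bp), the longest spanned 27528 bp, and the median domain lay 25971 bp from a mouse peak.

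**Figure D3:**
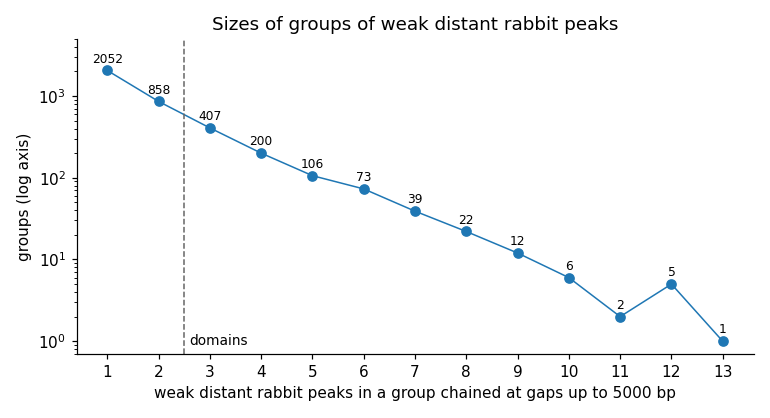
Number of groups (log axis) by the number of weak distant rabbit peaks in them, chained at gaps of up to 5000 bp; groups right of the dashed line are domains. Lone peaks number 2052, pairs 858 and groups of 3 407, and 1 group has 13.

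Domains were not places of higher score. Their members had a median score of 5.13 and lone peaks one of 5.43, and the medians of groups of 3 to 13 members ranged from 4.35 to 5.89. In 518 domains, or 59.3% (56.0 to 62.6%), no member reached a score of 10, where 86.4% of all weak distant peaks scored below 10. That share of domains depends on the number of members, so it does not compare domains with lone peaks. Nor were most domains gathered around a strong rabbit peak. A rabbit peak of 25 or more lay between the outer members of 21 domains (2.41%) and within 5000 bp of any member of 45 (5.15%, 3.78 to 6.84%), against 4.04% (3.23 to 4.99%) of lone peaks. The last 2 shares are not alike, since a domain is measured from 3 or more members. Such strong peaks were also rare throughout, as 94.4% of rabbit peaks scored below 25. Of the 407 domains of 3, the middle member scored highest in 126, or 31.0% (26.5 to 35.7%). This interval includes the equal share that each of the 3 positions would have if position made no difference.

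The share of weak distant peaks in domains changed less with distance than their density did. It was 55.0% (52.6 to 57.5%) between 10 and 20 kb from a mouse peak, 51.3% between 20 and 50 kb, 47.0% between 50 and 100 kb and between 100 and 200 kb, and 39.4% (33.2 to 45.9%) beyond 200 kb. Between 5 and 10 kb it was 45.2%, where the distance limit cuts off neighbours on the side of the mouse peak. Over 100 kb from any mouse peak there were still 117 domains.

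The largest domain lay on X from 7584936 to 7604138, with 13 members over 19203 bp and no mouse peak within 178655 bp. Its scores ran from 2.27 to 12.9 with a median of 4.92. Its highest member stood at 7601389, and a rabbit peak at 7605002 with a score of 30.1 lay 864 bp beyond its right end. The first member, at 7584936, scored 2.77 and lay 3452 bp from the next. Then came 7 members between 7588388 and 7592821, with scores from 2.27 to 7.59. A space of 3984 bp followed, and the remaining 5 members, from 7596805 on, had scores of 3.10, 7.97, 12.9, 6.28 and 2.56. The 13 members had 12 deposited ranks between them.

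A more compact domain lay close by on X, from 7824456 to 7832604, with 12 members over 8149 bp. The median gap was 451 bp and the nearest rabbit peak of 25 or more was 219454 bp away. Its first 3 members, at 7824456, 7824695 and 7825146, had scores of 2.54, 7.82 and 7.09 and 1 rank in common. A space of 2259 bp separated them from the highest member, 10.8 at 7827405, which was followed by members of 4.50, 2.23, 3.01, 2.55 and 5.39. The last 3 members, at 7831854, 7832160 and 7832604, scored 9.68, 9.52 and 9.44. Apart from the low first member, scores of 7.09 or more thus stood towards the left and at the right of the domain, with lower ones between. The nearest mouse peak lay 31149 bp away with a mouse score of 5.61.

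The domain on 3R from 26629076 to 26640485 had 12 members over 11410 bp, with a median score of 4.73. Its highest member, at 26640485 with a score of 14.2, was at its right end, and a mouse peak with a score of 4.69 lay 6293 bp away. A second domain on 3R, from 17439154 to 17463023, had 12 members with a median score of 3.74, none above 6.66. A rabbit peak at 17445197 with a score of 32.5 stood inside it, 456 bp from the member at 17445653, with which it had its rank in common.

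Strong rabbit peaks stood inside 1 other of the largest domains, that on X from 1156630 to 1183056. It had 12 members over 26427 bp with a median score of 6.69. Near its right end were rabbit peaks at 1180353 with a score of 30.8 and at 1181109 with a score of 75.9, and the highest weak member, 10.5 at 1181425, lay 316 bp from the latter. By contrast, the domain on X from 5774576 to 5802103, the longest of all, had its 12 members between scores of 2.71 and 12.4, with a median of 7.11. No rabbit peak of 25 or more lay within 84284 bp of it and no mouse peak within 142672 bp.

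**Figure D4:**
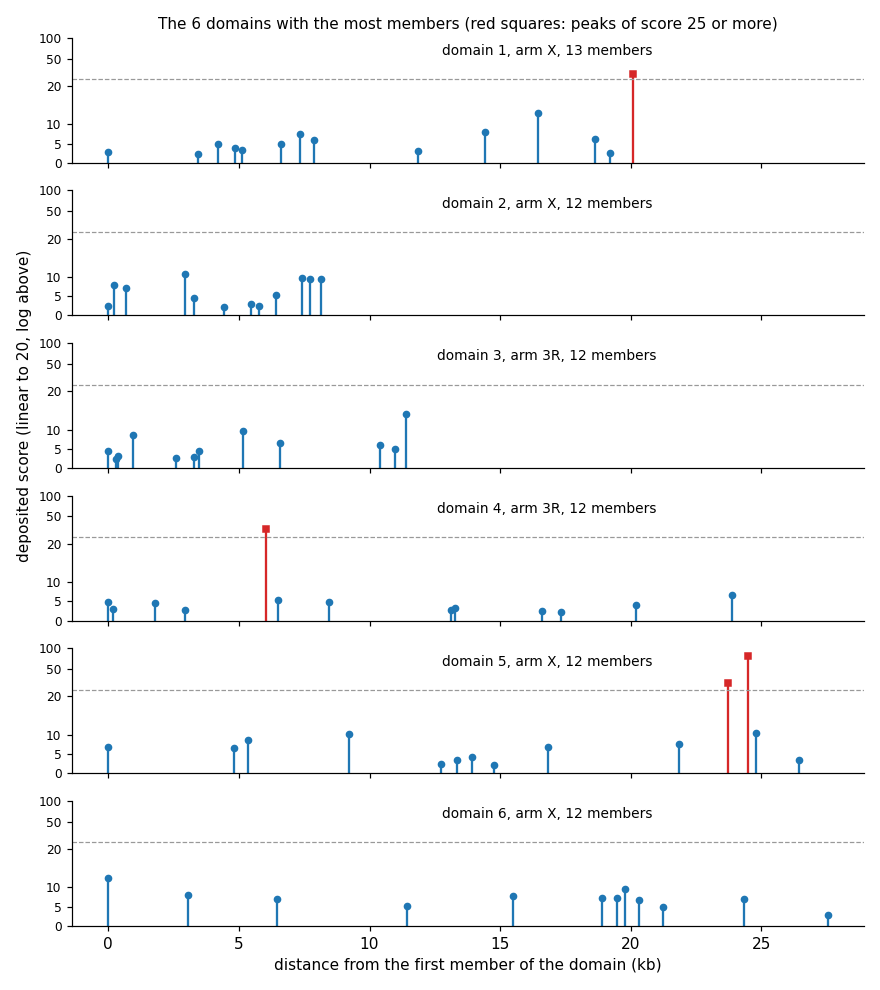
Members (circles) of the 6 largest domains, by distance from the first member in kb, against deposited score (axis linear to 20, log above); squares are rabbit peaks of score 25 or more in or within 5000 bp of the domain and the dashed line is the score limit of 25. Domains 1, 4 and 5 have squares, with scores between 30.1 and 75.9, and the others have none.

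The remaining 4 of the 10 largest domains had 11 or 10 members each and no strong rabbit peak inside. On X from 2186647 to 2195644 there were 11, with a median score of 4.42, whose nearest member to a mouse peak was 5122 bp away. On 3L from 536297 to 555486 there were 11, none above 6.33, spread over 19190 bp. On X from 8785457 to 8791739 there were 10 in 6283 bp, the shortest of these domains, with a highest score of 14.5 at 8790188 and 6 ranks among them. On 2L from 2193581 to 2203445 there were 10, none above 7.15. The last 2 were the shortest of 6 domains with 10 members. Of all 14 domains with 10 or more members, X held 6, or 42.9% with a wide interval (17.7 to 71.1%). Of all 873 domains X held 18.6% (16.0 to 21.3%), and of all weak distant peaks 19.0%.

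In fixed windows of 100 kb, the fullest was 3R from 17400001 to 17500000, with 29 weak distant peaks of 37 rabbit peaks, and 28 of the 29 lay in domains. It also held 2 mouse peaks. The windows on 3L from 9300001 to 9400000, on X from 10600001 to 10700000 and on X from 13200001 to 13300000 held 22 each, and 2L from 16500001 to 16600000 held 20. Of these, the windows on 3L, on 2L and on X from 13200001 had no mouse peak, and on 3L and that window of X all 22 rabbit peaks were weak distant ones. Over all windows with such a peak the median was 6 in 1124 windows, and 434 of these windows had no mouse peak.

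The X chromosome gave the largest share of its rabbit peaks among the major arms, but not the highest density. Weak distant peaks were 1422 of 2033 rabbit peaks on X, or 69.9% (67.9 to 71.9%), against 61.4% over the whole list and 59.7% (58.7 to 60.6%) on the 4 autosomal arms together. The share was 62.9% on 2L, 61.7% on 3L, 58.9% on 3R and 56.1% on 2R. X had 183 mouse peaks, the fewest of the major arms, and 93.2% of its sequence between mouse peaks was over 5000 bp from one, against 88.0% on the autosomal arms. Per megabase of that distant sequence, X had 69.0 weak peaks (65.4 to 72.7) and the autosomal arms 72.9 (71.0 to 74.7). The highest density was that of 2R, 82.5 (78.2 to 86.9), and the lowest of the major arms that of 2L, 63.4 (59.9 to 67.0). The mouse list is part of the rule, so the shares were not tested.

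At matched distances the arms still gave different values, and the density fell with distance on all 5. By class, intervals for single arms were taken only beyond 100 kb, so nearer differences are not set against counting error. Between 5 and 10 kb the density ranged from 96.1 per Mb on 2L (167 peaks) to 117 on 3L (263 peaks), with 102 on X (130 peaks). It ran from 68.4 on 2L to 85.1 on 2R between 20 and 50 kb, and from 46.9 on 2L to 63.2 on 2R between 50 and 100 kb. Beyond 100 kb it was between 43.9 and 49.5 on the autosomal arms and 56.4 (51.1 to 62.0) on X, against 46.0 (42.4 to 49.8) over the autosomal arms together. The fall from the first class to the last was thus smallest on X, at 1.81-fold (1.47 to 2.20), and largest on 3L, at 2.50-fold (2.01 to 3.13), with overlapping intervals. Median scores differed little between arms, from 5.06 on 2R to 5.49 on X.

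**Figure D5:**
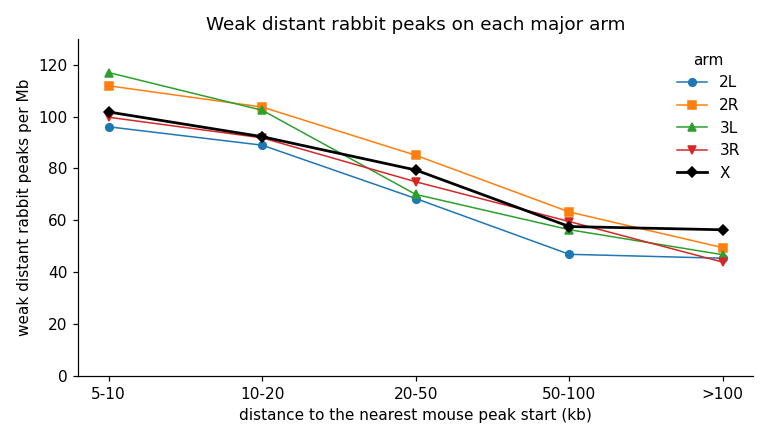
Weak distant rabbit peaks per megabase on the arms 2L, 2R, 3L, 3R and X, by distance to the nearest mouse peak start in kb; each point is 1 arm of the rabbit list. All 5 lines fall, from between 96.1 and 117 per Mb at 5 to 10 kb to between 43.9 and 56.4 beyond 100 kb.

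Chromosome 4 and the heterochromatic sequences held few. On chromosome 4 they were 50 of 70 rabbit peaks, or 71.4% (59.4 to 81.6%), with a median gap of 3714 bp to the nearest rabbit peak, and 8 of the 50 lay in 2 domains. From the 38 peaks between its outermost mouse peaks, its density was 43.5 per Mb (30.8 to 59.7), below the interval of each major arm in the same measure. That measure is not matched for distance. By class it was 100 between 5 and 10 kb (4 peaks) and 48.5 (25.8 to 83.0) beyond 100 kb (13 peaks), within the range of the major arms. In the classes between it was 37.5, 45.8 and 28.5 (3, 11 and 7 peaks), below every major arm. The heterochromatic sequences held 14 of 29 rabbit peaks, with 6 on 2RHet, 5 on 3RHet and 3 on 3LHet. None of the 14 lay between mouse peaks of their sequence.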

How the data were processed

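Peak lists of the 2 anti-Grh libraries were used as deposited, and the IgG library was left aside. Bowtie and the dm3 build are named for the alignment, per the submitters' processing notes. Not given in the sources used here are the version of Bowtie, the caller of the peaks, its cut-offs and whether IgG entered them. The deposited score of each peak has no stated unit and is the authors' own value. Peak starts were counted from 1. Distances, gaps and chains were taken between starts on a chromosome. Densities used the sequence between the outermost mouse peaks of each chromosome. Shares have exact Clopper-Pearson intervals and densities exact Poisson intervals at 95%, for counting error only. Distances, chains and densities were tested on simulated positions. No test of a difference was run, since the score and the mouse list chose the peaks and each antibody has 1 library. The members and lists were chosen with earlier results of these data known. Regions named were the 10 domains with the most members (ties by shorter span), the 5 highest-scoring and 5 farthest members, the 5 fullest mouse-free stretches and 100 kb windows, and the 3 peaks on each side of both limits. The longest stretches were named after their values were seen. The available gene table is of another build and was not used. The tools were SciPy 1.17.1, pandas 2.3.3, matplotlib 3.10.9 and NumPy 2.4.6 under Python 3.11.15.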

Additional observations from a re-analysis of the deposited data

How the results depend on the processing

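Over 7 results, 39 of 57 alternative values stayed within the interval of the reported one or, for counts, within 1.5 times. Counting distances between interval edges changed no value. The 10000 bp limit gave a median of 2 rabbit peaks within 10 kb and 48.4% of peaks in domains. Scores below 10 gave a median score of 4.79 and 44.7% in domains, and no score limit a median score of 5.40. Rabbit peaks chained at 1 kb and counted as 1 gave a median score of 5.69, a median gap of 4326 bp, a median of 2 peaks within 10 kb, 356 domains and 23.2% in domains. In that setting each chain was represented by its highest-scoring peak, and no gap of 1 kb or less remained. The share in domains was 29.4% at a chaining gap of 2000 bp and 67.7% at 10000 bp. Requiring 5 members left 266 domains and 22.5%. Windows of 25 and 50 kb on either side held a median of 7 and 13 rabbit peaks, by construction. The density fall, with settings chosen after seeing the data, was 2.50-fold on 3L, 1.81-fold on X, 2.12-fold over peaks chained at 1 kb and 2.01-fold in the upper 50% by score. No paired analysis was possible because there is 1 library per antibody and no result comes from a test; for the same reason no replicate was left out.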

Other observations

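Scores recurred among the weak distant peaks: 2273 of them, or 30.4%, had a score that at least 1 other of them had to all printed digits, and the 7469 peaks had 5797 distinct scores. The most frequent was 5.124, with 27 peaks, followed by 4.2697 with 24 and 5.48712 with 23. The authors' orders followed the score loosely within this set. The Spearman correlation across the peaks was 0.34 between score and deposited rank, with the sign set so that a first rank counts as high, and 0.94 between the deposited number and the rank.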
